A study of Mus musculus with 9 samples.

Results

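Potassium, calcium and TRP ion channel genes are described here in mouse bone marrow-derived mast cells, the tissue effector cells of allergy. Members were taken by gene symbol alone: every gene named Kcn followed by a letter, Cacna, Cacnb or Cacng, Trpc, Trpm or Trpv followed by a digit, or Mcoln. The rule gave 43 of the 15109 genes measured: 24 Kcn genes, 10 Cacn genes, 7 Trp genes and 2 mucolipins. Of these, 3 share only the name. Trpc4ap encodes an adaptor of a ubiquitin ligase, Kcnrg a soluble regulator of potassium channels, and Kcnq1ot1 a long noncoding RNA transcribed antisense to Kcnq1. The other 40 encode pore-forming, modifying or auxiliary channel subunits.

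All cells were grown from the bone marrow of wild-type C57BL/6 mice, over 4 weeks or more, in medium with 20% serum and 30% supernatant of WEHI-3 cells, which secrete interleukin 3. The Control group was untreated. The BSA group was sensitised with anti-DNP-IgE and stimulated with the antigen DNP-BSA, which binds that antibody and so crosslinks the IgE receptor FceRI. The Taxinine group received the same sensitisation and antigen after 1 h with taxinine, a taxane diterpenoid of yew. Each group had 3 libraries, called biological replicates by the submitters. Whether they came from separate mice or cultures is not stated, so p-values measure spread between these libraries that may be only technical. No dose, vehicle, antigen exposure time or group with taxinine alone is given, so Taxinine against BSA includes any effect of a solvent, and BSA against Control does not separate sensitisation from crosslinking.

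Crosslinking of the IgE receptor empties calcium stores and opens calcium entry channels of the plasma membrane. Potassium channels keep the membrane potential negative and so maintain the driving force for calcium, whereas channels that admit sodium depolarise the cell. Voltage-gated calcium channels are best known from excitable cells, TRP channels are cation channels with diverse chemical and physical triggers, and mucolipins release calcium from lysosomes and endosomes.

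Total counts ranged from 8975371 (Taxinine replicate 1) to 14116976 per library. At these depths 3 counts corresponded to 0.192 to 0.347 CPM, counts scaled to a common library size with edgeR's TMM factors. Such limits cover counting error only, and reads carried no molecular identifiers. The label was checked against markers: all 10 listed mast cell genes had a row, and their summed level was 46905 to 52385 CPM. The single T cell gene and the single B cell gene with a row reached at most 0.380 and 0.761 CPM, and the single neutrophil gene at most 0.946 CPM. Basophil markers (4 of 4 listed) summed to 1200 to 1341 CPM, macrophage and monocyte markers (8 of 9) to 128 to 162 CPM, dendritic cell markers (1 of 5) to 29.0 to 34.2 CPM and erythroid markers (2 of 5) to 31.9 to 40.6 CPM. Most of the macrophage and monocyte sum in Control came from Cx3cr1 (68.1 CPM) and Adgre1 (44.2 CPM). Csf1r (0.758), Ly6c2 (0.542), Mrc1 (0.130) and C1qb (0.0867) were under 1 CPM there, and C1qa had no row. Of 4 eosinophil genes listed, 1 had a row, Siglecf, at 3.50 to 17.0 CPM, while Epx, Prg2 and Ear1 had none. Of 5 genes listed for stromal cells, 1 had a row, Pecam1, at 504 to 584 CPM. Col1a1, Col1a2, Col3a1 and Pdgfrb had none, so Pecam1 is not read here as a sign of stromal cells. In bulk samples, fewer cells of a type and less RNA per cell cannot be told apart.

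Of the 43 members, 28 had a mean of at least 1 CPM over the 9 libraries and 36 had a count in every library. Levels between genes were compared per kilobase of annotated exon. In Control cells the highest was Kcne3, encoding a small single-span subunit that modifies voltage-gated potassium channels, at 30.8 ± 2.22 CPM per kilobase (SD, n = 3). Next came Kcnab2, a cytosolic beta subunit of voltage-gated potassium channels, at 23.8 ± 0.705, and Kcnn4, the calcium-activated potassium channel of intermediate conductance that opens through bound calmodulin, at 20.2 ± 1.79. Trpc4ap reached 16.9 ± 1.18 and Trpm7, a magnesium and calcium channel fused to a protein kinase, 12.3 ± 0.825 CPM per kilobase. Kcnk6, a tandem-pore-domain potassium channel, Trpv2, a cation channel gated by heat and mechanical stress, Kcnk5, an acid-sensitive tandem-pore-domain channel, the lysosomal channel Mcoln1 and the voltage-gated channel Kcna3 completed the 10 highest, between 6.90 and 8.16. The last 3 of these, at 7.06 ± 0.867, 7.06 ± 0.203 and 6.90 ± 1.40 CPM per kilobase, differed by less than their spread.

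Calcium-channel genes stood below the 10 highest, with Cacna1h, Cacnb4 and Cacng8 next at ranks 11 to 13 per kilobase in Control. Cacna1h, a low-voltage-activated pore subunit, stood at 5.89 ± 0.448 CPM per kilobase in Control and the auxiliary beta subunit Cacnb4 at 5.53 ± 0.359, while the pore subunit Cacna1a stood at 0.242 ± 0.00136. Exons of Cacna1h share 158 bases with those of the mast cell tryptase gene Tpsg1, on the other strand, whose level in Control was 421 ± 14.1 CPM. The strand setting of the counting is not given in the sources used here, so whether reads of the 2 genes were kept apart there is not known. The order in BSA was different: the highest members per kilobase were Kcnab2 (25.5 ± 1.72), Kcnn4 (24.2 ± 1.88) and Kcne3 (22.0 ± 1.17), with Kcnk5 at 21.2 ± 0.492. Kcnab2 and Kcnn4 differed by less than the SD of either, and Kcne3 and Kcnk5 by less than the SD of Kcne3.

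**Figure D1:**
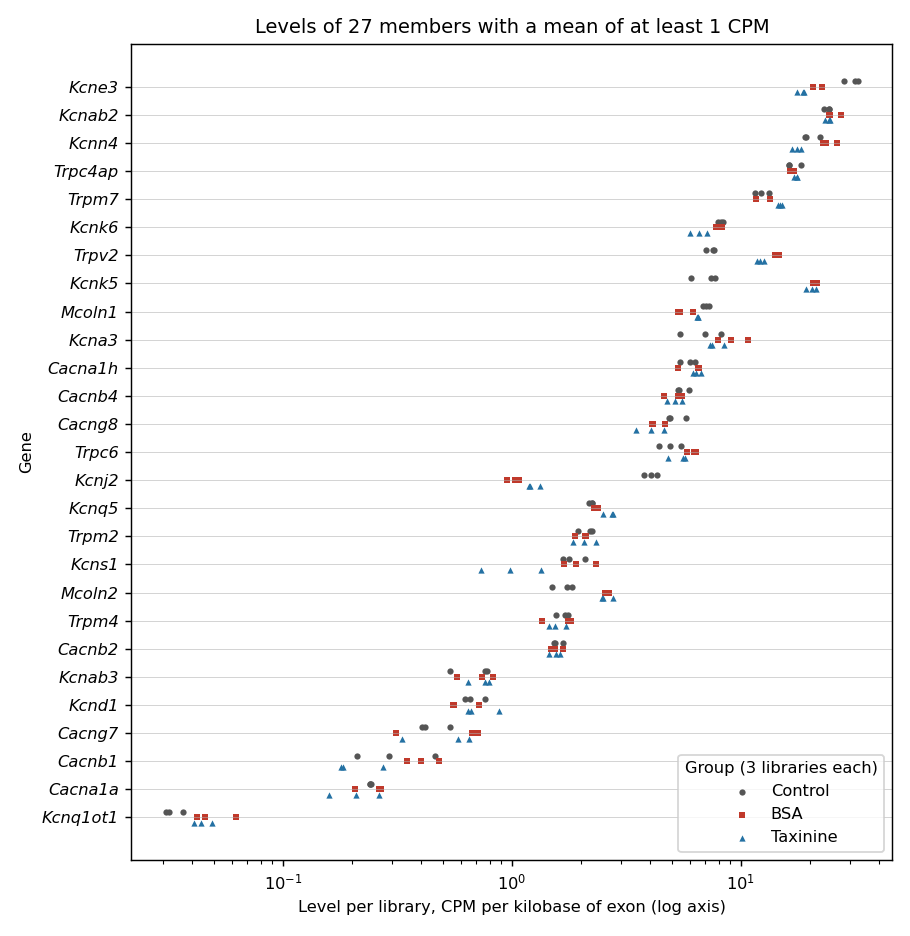
Level in each library, in CPM per kilobase of exon on a log axis, for 27 of the 28 members with a mean of at least 1 CPM, ordered by their mean in Control. Circles are Control, squares BSA and triangles Taxinine, 3 libraries each. Kcnj2 and Kcnk5 show the widest gaps between Control and the activated groups.

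RefSeq promoter windows, 250 bases before to 50 bases after an annotated start in GRCm38.p6, were matched by symbol to 34 of the 43 members. They are shown for 5 members on which the comparisons below turn and whose windows hold the E-box CACGTG, the letters bound by MITF, a transcription factor of the mast cell lineage, and by TFEB, a regulator of lysosomal genes. Windows of Trpv2, Kcne3 and Kcns1, on which the comparisons turn as well, do not hold it. Several motifs were searched, and the E-box was the only motif with a larger share in member windows than in all windows. Capitals mark the E-box, which reads the same on both strands.
Kcnn4: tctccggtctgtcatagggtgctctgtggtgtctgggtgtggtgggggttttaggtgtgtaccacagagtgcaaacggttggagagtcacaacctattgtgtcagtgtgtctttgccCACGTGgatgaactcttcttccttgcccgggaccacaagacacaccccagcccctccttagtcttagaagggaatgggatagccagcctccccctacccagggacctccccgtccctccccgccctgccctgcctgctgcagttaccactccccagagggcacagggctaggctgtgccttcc
Kcnj2: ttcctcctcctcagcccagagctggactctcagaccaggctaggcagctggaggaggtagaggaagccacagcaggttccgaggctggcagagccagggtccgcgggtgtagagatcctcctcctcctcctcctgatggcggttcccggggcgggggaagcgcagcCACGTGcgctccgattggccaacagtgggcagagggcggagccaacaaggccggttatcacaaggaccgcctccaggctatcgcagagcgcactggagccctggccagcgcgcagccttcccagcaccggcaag
Kcnk5: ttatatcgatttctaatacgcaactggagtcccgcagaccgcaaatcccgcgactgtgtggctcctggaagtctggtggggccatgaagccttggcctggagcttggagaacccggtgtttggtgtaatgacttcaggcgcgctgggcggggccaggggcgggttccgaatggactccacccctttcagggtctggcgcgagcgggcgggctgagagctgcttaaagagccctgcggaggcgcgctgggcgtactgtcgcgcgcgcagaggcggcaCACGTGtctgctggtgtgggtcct
Mcoln1: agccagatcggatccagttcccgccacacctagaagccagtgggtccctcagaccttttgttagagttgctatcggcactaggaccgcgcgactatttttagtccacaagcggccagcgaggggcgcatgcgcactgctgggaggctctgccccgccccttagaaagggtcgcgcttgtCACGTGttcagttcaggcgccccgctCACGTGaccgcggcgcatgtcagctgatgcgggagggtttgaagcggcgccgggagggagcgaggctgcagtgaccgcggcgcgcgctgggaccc
Mcoln2: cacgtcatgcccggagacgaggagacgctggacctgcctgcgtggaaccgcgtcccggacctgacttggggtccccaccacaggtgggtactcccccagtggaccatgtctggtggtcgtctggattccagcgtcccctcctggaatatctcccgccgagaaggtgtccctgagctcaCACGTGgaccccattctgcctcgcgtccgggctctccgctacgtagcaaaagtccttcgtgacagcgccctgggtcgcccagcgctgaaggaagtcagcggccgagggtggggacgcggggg
These windows lie at chr7:24370013-24370312 (Kcnn4, plus strand), chr11:111065914-111066213 (Kcnj2, plus strand), chr14:20181733-20182032 (Kcnk5, minus strand), chr8:3500269-3500568 (Mcoln1, plus strand) and chr3:146149924-146150223 (Mcoln2, plus strand). The E-box began 133 bases before the start in Kcnn4, 84 in Kcnj2 and 72 in Mcoln2, at 71 and 45 bases before it in Mcoln1, and at base 27 after the start in Kcnk5. The starts of Mcoln2, Mcoln1 and Kcnk5 used by RefSeq lie inside the genes as GENCODE draws them. Of 32817 promoter windows of this length in the table, 7.15% held the letters.

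The first comparison asks what IgE and antigen changed in these genes. Kcnk5, Trpv2 and Mcoln2 rose and Kcnj2, Kcne3 and Mcoln1 fell, and these 6 calls held in all 17 alternatives run. Kcnj2, the inward rectifier, showed the largest called fall, to 5.54 ± 0.330 from 22.1 ± 1.40 CPM, and Kcnk5 the largest called rise, to 72.1 ± 1.67 from 24.0 ± 2.95 CPM (SD, n = 3). Kcnn4, Trpc6, Kcna3 and Kcnq1ot1 were also called higher, but not when libraries were scaled by their totals alone. None of the 10 Cacn genes was called by edgeR's quasi-likelihood test with TMM and all 9 libraries.

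In all, 10 of the 43 members passed edgeR's quasi-likelihood test at an adjusted p under 0.05, 7 higher and 3 lower in BSA (9 of the 40 channel subunits, 6 and 3). That is 23.3% of the members, against 34.0% of all genes tested, of which 16.2% were higher and 17.8% lower. The libraries of BSA and Control did not overlap in 15 members, 10 higher and 5 lower, against 42.9% of all genes (20.2% and 22.7%). None of the 15 members under 1 CPM was called by edgeR, DESeq2 or limma (2 had an unadjusted p under 0.05, Kcnd2 and Kcns3), where edgeR called 8.58% of all genes under 1 CPM. It called 10 of the 28 at or above it, 35.7%, against 41.5% of all genes at that level. The median log2 fold change of the members was 0.06, against -0.0041 over all genes. Scaling by library totals moved the median of all genes to -0.23 on the log2 scale, and with it 17 members were called, 3 higher and 14 lower, against 52.8% of all genes (7.15% higher and 45.6% lower). Changes below are given relative to the TMM reference.

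Among potassium channels, Kcnj2 sets the resting potential of many cells. It stood at 23.5, 22.1 and 20.7 CPM in Control replicates 1 to 3 and at 5.62, 5.83 and 5.18 CPM in BSA. The lowest Control library was far above the highest BSA library. The log2 fold change was -1.99 ± 0.11 (SE; adjusted p = 1.85e-19 by edgeR's quasi-likelihood test). The gene lies on GRCm38 chromosome 11, 111066164 to 111076821, plus strand.

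Kcnk5 (chromosome 14, 20140057 to 20181809, minus strand) encodes a channel that leaks potassium at rest. Its levels were 26.2, 20.7 and 25.3 CPM in Control and 72.5, 70.2 and 73.5 CPM in BSA, so the groups were far apart. It rose by 1.58 ± 0.07 on the log2 scale (adjusted p = 3.33e-23 by edgeR's quasi-likelihood test). Its relative Kcnk6 gave 34.7, 32.9 and 34.1 CPM in Control and 34.3, 32.2 and 32.7 in BSA. Those groups overlapped, and Kcnk6 was not called at -0.03 ± 0.07, although with library totals it was called lower at -0.26 (adjusted p = 0.00157 by edgeR's quasi-likelihood test).

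Kcnn4 (chromosome 7, 24370263 to 24386690, plus strand) stood at 98.6, 114 and 97.3 CPM in Control and at 120.0, 116 and 135 CPM in BSA. The groups did not overlap, though Control replicate 2 came close to BSA replicate 2. The log2 fold change of 0.26 ± 0.06 was called with TMM (adjusted p = 0.00029 by edgeR's quasi-likelihood test). It was 0.03 with library totals (adjusted p = 0.684). The voltage-gated channel gene Kcna3, well known from T cells, gave 15.7, 10.4 and 13.3 CPM in Control and 17.3, 20.5 and 15.2 in BSA. It was called at 0.44 ± 0.11 although the groups overlapped, and gave 0.21 with library totals (adjusted p = 0.122 by edgeR's quasi-likelihood test).

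Kcne3 (chromosome 7, 100176502 to 100184869, plus strand) went the other way. Its levels were 50.3, 57.8 and 56.3 CPM in Control and 40.4, 40.1 and 36.6 in BSA. Every BSA library was below every Control library, at a log2 fold change of -0.49 ± 0.06 (adjusted p = 4.24e-08 by edgeR's quasi-likelihood test). Kcnab2 ran from 128 to 135 CPM in Control and from 136 to 153 in BSA, so the groups just missed overlapping, and was not called, at 0.09 ± 0.05, but was called lower with library totals (-0.13, adjusted p = 0.0201 by edgeR's quasi-likelihood test). Kcnq5, a slowly activating voltage-gated subunit, stood at 17.3, 17.3 and 16.7 CPM in Control and at 18.2, 18.0 and 17.6 in BSA. Kcns1, an electrically silent subunit that modifies other voltage-gated channels, stood at 5.68, 4.54 and 4.84 CPM in Control and at 6.30, 4.57 and 5.18 in BSA. Kcns1 overlapped between the groups and Kcnq5 did not; neither was called, and the sign of both turned with library totals (-0.15 and -0.13).

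Of the TRP genes, Trpv2 (chromosome 11, 62574486 to 62600515, plus strand) stood at 31.5, 34.3 and 34.0 CPM in Control. In BSA it stood at 65.6, 63.4 and 65.2 CPM, about as far from Control in each library. It rose by 0.96 ± 0.06 on the log2 scale (adjusted p = 1.71e-17 by edgeR's quasi-likelihood test). Trpc6, a cation channel opened by diacylglycerol, gave 22.2, 24.9 and 27.8 CPM in Control and 29.6, 31.7 and 32.5 in BSA. Its groups did not overlap and it was called at 0.32 ± 0.08, but not with library totals (0.09; adjusted p = 0.343 by edgeR's quasi-likelihood test).

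None of the 3 TRPM genes was called by edgeR's quasi-likelihood test with TMM or by DESeq2, and none had an unadjusted p under 0.05 in the former. Limma on the deposited log2 values, which carry no TMM factors, called all 3 lower. Trpm7 stood at 149.7, 131 and 138 CPM in Control and at 152, 152 and 133 in BSA. Trpm4, a calcium-activated channel that admits sodium and depolarises mast cells, stood at 19.0, 17.0 and 18.4 CPM in Control and at 19.0, 14.7 and 19.7 in BSA. Both overlapped between the groups. Trpm2, opened by ADP-ribose under oxidative stress, gave 26.5 ± 1.89 and 25.3 ± 1.58 CPM. With TMM, Trpm7 stood at 0.06 ± 0.05, but it was called lower with library totals (-0.17; adjusted p = 0.00666 by edgeR's quasi-likelihood test), so its direction depends on the scaling.

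The mucolipins moved apart. Mcoln1 (chromosome 8, 3500457 to 3515232, plus strand) stood at 54.9, 53.1 and 51.9 CPM in Control and at 41.1, 40.1 and 46.7 in BSA. The groups did not overlap, and the log2 fold change was -0.33 ± 0.06 (adjusted p = 4.01e-05 by edgeR's quasi-likelihood test). Mcoln2 (chromosome 3, 146149833 to 146195513, plus strand), an endosomal relative found in immune cells, stood at 6.02, 5.76 and 4.91 CPM in Control and at 8.73, 8.43 and 8.55 in BSA. It rose by 0.62 ± 0.13 (adjusted p = 0.000172), again with no overlap.

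The calcium-channel genes Cacna1h (57.5 ± 4.37 and 59.8 ± 6.87 CPM), Cacnb4 (49.6 ± 3.22 and 46.3 ± 4.20) and Cacnb2 (20.9 ± 1.06 and 20.8 ± 1.29) overlapped between Control and BSA. Of the 10 Cacn genes 1 had an unadjusted p under 0.05, Cacng8, DESeq2 called 0 and limma on the deposited log2 values called 4 lower, Cacna1h, Cacnb2, Cacnb4 and Cacng8. Cacng8, of the gamma subunit family that in neurons accompanies glutamate receptors, stood at 11.6, 13.6 and 11.4 CPM in Control and at 9.64, 11.0 and 9.73 in BSA. Its groups did not overlap, but at -0.27 ± 0.11 it missed the threshold (adjusted p = 0.0614 by edgeR's quasi-likelihood test). With library totals Cacng8 was called, at -0.50, and it was called without BSA replicate 2 as well. Kcnq1ot1 was called at 0.60 ± 0.18 with levels of 2.97, 2.88 and 3.40 CPM in Control and 4.25, 5.83 and 3.91 in BSA. It lost the call with library totals (0.38, adjusted p = 0.0819) and without BSA replicate 2 (0.41, adjusted p = 0.133).

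Genes of the marker lists moved too. Of the 8 macrophage and monocyte genes 2 were called higher in BSA, and their summed level was 141 to 144 CPM in Control and 149 to 162 in BSA. Of the 4 basophil genes 2 were called higher and 1 lower (1317 to 1341 and 1289 to 1337 CPM), and of the 10 mast cell genes 5 were higher and 1 lower. Siglecf rose from between 3.50 and 5.37 CPM to between 13.9 and 17.0 CPM, and Pecam1 and 1 of the 2 erythroid genes were called higher as well. With library totals 2 of the 10 mast cell genes were higher and 8 lower, and of the macrophage and monocyte genes 1 was higher and 1 lower. Siglecf stayed called (1.59) and Pecam1 did not (-0.05). Their part in the channel results was not tested.

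**Figure D2:**
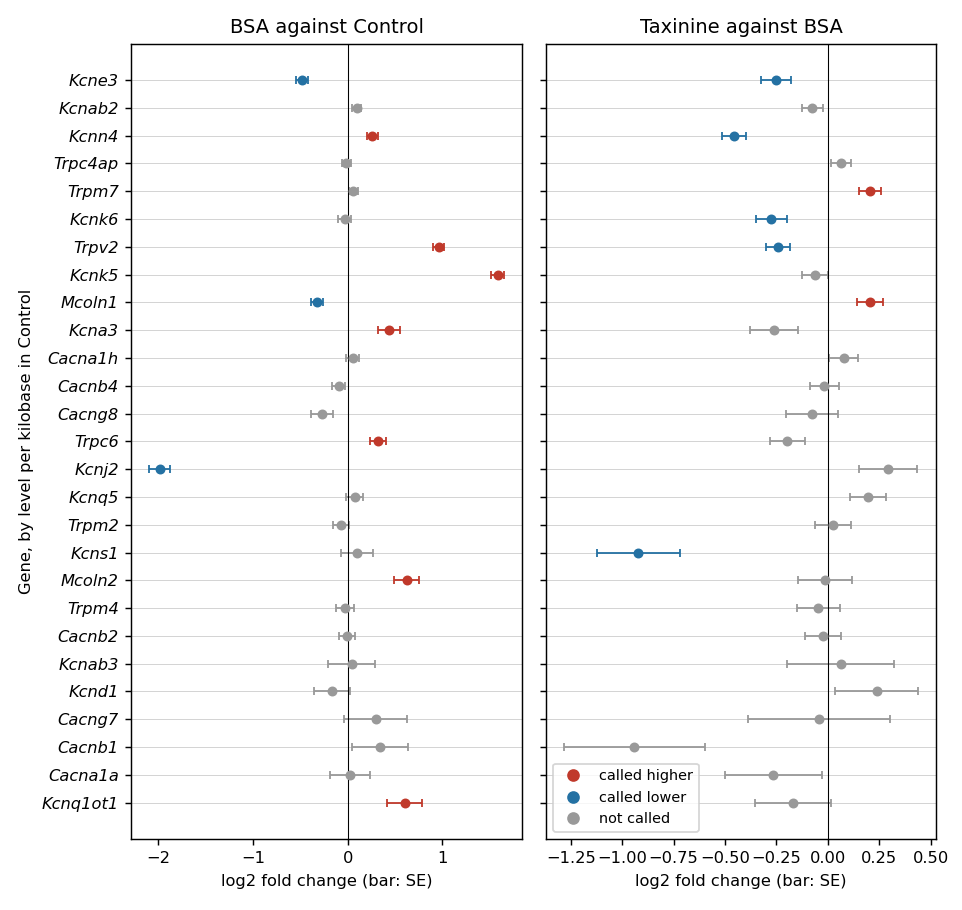
Log2 fold change with its SE for 27 of the 28 members with a mean of at least 1 CPM, in BSA against Control (left) and Taxinine against BSA (right), with a different scale in each panel. Red and blue points are called higher and lower by edgeR's quasi-likelihood test and grey points are not called. Kcnj2 at -1.99 and Kcnk5 at 1.58 lie farthest from 0 on the left, and of the called genes Kcns1 at -0.92 lies farthest on the right.

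**Figure D3:**
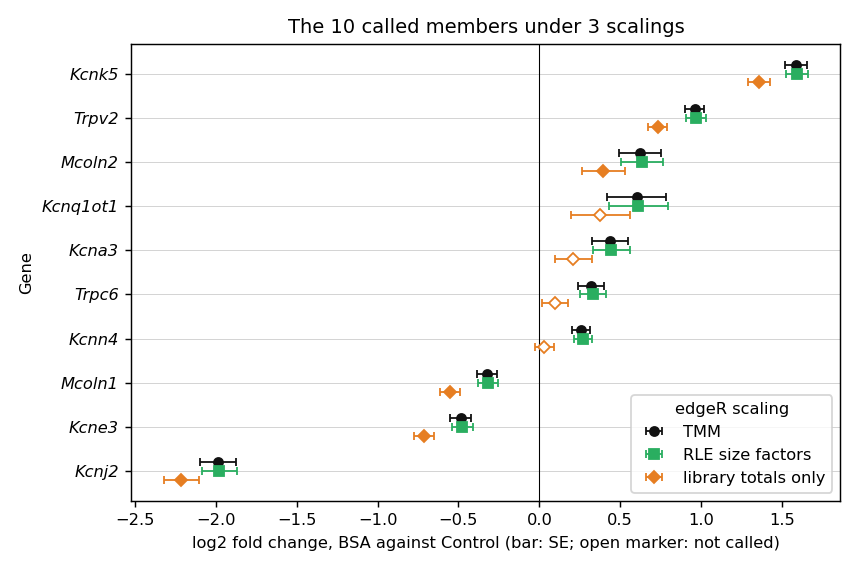
Log2 fold change with its SE in BSA against Control for the 10 called members, with TMM factors, RLE size factors and library totals only. Filled markers are called and open markers are not: Kcnn4, Trpc6, Kcna3 and Kcnq1ot1 are open with library totals, while the other 6 stay filled.

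The second comparison addresses the effect of taxinine on cells that received antigen. Kcnn4, Kcns1 and Trpv2 fell relative to BSA, and these 3 calls held in all 17 alternatives. Kcnn4 reached 89.9 ± 4.15 against 124 ± 9.60 CPM, Kcns1 2.76 ± 0.820 against 5.35 ± 0.877 CPM and Trpv2 54.6 ± 1.74 against 64.7 ± 1.19 CPM (SD, n = 3). Kcne3 and Kcnk6 were called lower and Trpm7 and Mcoln1 higher, but each of these 4 lost the call in at least 2 alternatives. Kcnk5 and Mcoln2, which were higher in BSA than in Control, were not called, nor was Kcnj2.

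Of the 43 members 7 were called, 2 higher and 5 lower in Taxinine, or 16.3%, against 6.98% of all genes tested (2.86% higher and 4.12% lower). The libraries did not overlap in 13 members, 5 higher and 8 lower, against 23.9% of all genes (11.5% and 12.4%). At or above 1 CPM the share was 25.0% of 28 members and 8.95% of all genes. Leaving out 1 library moved the count by over 1.5 times in 3 cases: it was 3 without Taxinine replicate 1, the shallowest library, 4 without Taxinine replicate 3 and 4 without BSA replicate 1. The share of all genes called fell as well, to 4.36%, 4.63% and 5.17% in these 3 cases. The members' median log2 fold change was -0.05, against 0.0021 over all genes.

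Kcnn4 stood at 120.0, 116 and 135 CPM in BSA and at 89.9, 85.7 and 94.1 in Taxinine. All 3 Taxinine libraries were also below every Control library. The log2 fold change against BSA was -0.46 ± 0.06 (adjusted p = 4.48e-07 by edgeR's quasi-likelihood test), from -0.50 to -0.39 over the alternatives. Kcns1 (chromosome 2, 164163619 to 164171113, minus strand) stood at 6.30, 4.57 and 5.18 CPM in BSA and at 2.66, 2.00 and 3.63 in Taxinine, which is 21 to 48 counts in a Taxinine library. The groups did not overlap at -0.92 ± 0.20 (adjusted p = 0.00202).

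Trpv2 stood at 65.6, 63.4 and 65.2 CPM in BSA and at 53.0, 54.3 and 56.4 in Taxinine. Each Taxinine library was below each BSA library and above each Control library. The difference was -0.24 ± 0.06 on the log2 scale (adjusted p = 0.00618 by edgeR's quasi-likelihood test). Trpc6 ran lower without overlap too (28.9, 24.3 and 28.4 CPM in Taxinine) but was not called, at -0.20 ± 0.08 (adjusted p = 0.165).

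Kcne3 gave 33.4, 31.4 and 33.7 CPM in Taxinine, below all BSA libraries, at -0.25 ± 0.07 (adjusted p = 0.0239 by edgeR's quasi-likelihood test). It lost the call without any 1 of 5 of the 6 libraries compared, BSA replicate 3 being the exception, with adjusted p from 0.0545 to 0.144. Kcnk6 gave 24.9, 29.6 and 27.3 CPM, a log2 fold change of -0.27 ± 0.08. Without Taxinine replicate 1 the adjusted p was 0.130, without Taxinine replicate 3 it was 0.0694 and without BSA replicate 1 it was 0.0854 (edgeR's quasi-likelihood test), so the call was lost in each case.

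Trpm7 (chromosome 2, 126791565 to 126876230, minus strand) stood at 152, 152 and 133 CPM in BSA and at 172, 164 and 168 in Taxinine. The groups did not overlap at 0.20 ± 0.05 (adjusted p = 0.0103 by edgeR's quasi-likelihood test). The call was lost without BSA replicate 3 (0.14, adjusted p = 0.122) or Taxinine replicate 1 (0.19, adjusted p = 0.0678). Mcoln1 gave 48.9, 48.9 and 49.2 CPM in Taxinine, between BSA and Control in every library. Its 0.20 ± 0.07 was just inside the threshold (adjusted p = 0.0477) and missed it with RLE size factors (0.0511), with DESeq2 (0.0906), with the replicate number in the fit (0.0535) and without any 1 of 6 libraries.

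Other members were not called in Taxinine against BSA. Kcnk5 stood at 72.2, 69.5 and 65.8 CPM in Taxinine (-0.06 ± 0.06) and Mcoln2 at 8.22, 9.13 and 8.16 CPM (-0.01 ± 0.13). Both overlapped with BSA. Kcna3 stood at 14.0, 16.1 and 14.3 CPM (-0.26 ± 0.12), Trpm4 at 16.8, 15.8 and 18.7 CPM (-0.05 ± 0.10) and Kcnq5 at 21.2, 19.3 and 21.3 CPM (0.20 ± 0.09), of which Kcnq5 lay above all BSA libraries without being called. Kcnj2 stood at 6.48, 6.56 and 7.25 CPM, above all BSA libraries but not called at 0.29 ± 0.14 (adjusted p = 0.245 by edgeR's quasi-likelihood test). Cacnb1, an auxiliary calcium-channel subunit, stood lower without overlap at 0.959 ± 0.240 against 1.86 ± 0.305 CPM, but with 7 to 13 counts in a Taxinine library it was not called (-0.94 ± 0.34, adjusted p = 0.0920).

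Of the 8 macrophage and monocyte genes 2 were called lower in Taxinine than in BSA, Lyz2 and Cx3cr1, and their summed level was 128 to 136 CPM in Taxinine against 149 to 162 in BSA. The mast cell transcription factor gene Gata2, the basophil protease gene Mcpt8 and Pecam1 were called lower too. Depth also differed, with 8975371 counts in Taxinine replicate 1 against at least 11680348 in BSA. The part of these in the channel results was not tested. Without Taxinine replicate 1 the calls of Kcnn4, Kcns1 and Trpv2 held and those of Kcne3, Kcnk6, Trpm7 and Mcoln1 were lost, while Taxinine replicate 2, at 10945236 counts, also lies below every BSA library.

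**Figure D4:**
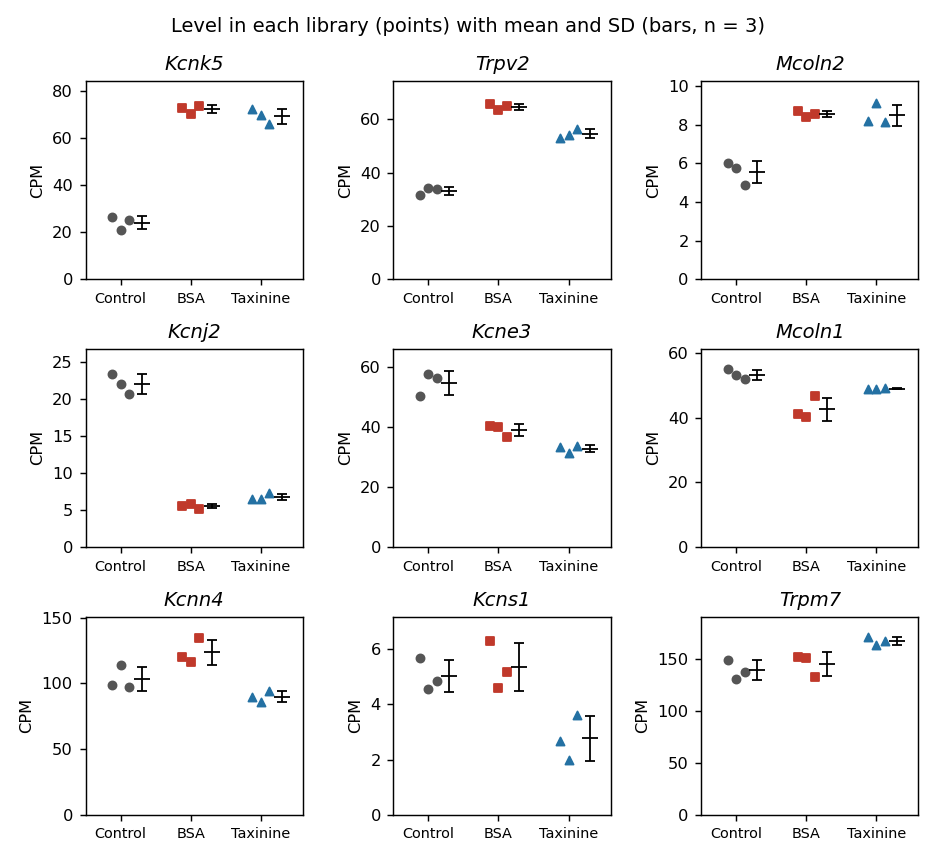
Level in CPM in each library for 9 members, from an axis that starts at 0: circles Control, squares BSA, triangles Taxinine, with the mean and SD of 3 libraries beside them. The top row holds genes that were higher in BSA than in Control, the middle row genes that were lower, and in the bottom row the Taxinine libraries of Kcnn4 and Kcns1 lie below and those of Trpm7 above all BSA libraries.

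Taxinine against Control shares its libraries with the other comparisons and is given for completeness. Here 12 of 43 members were called, 6 higher and 6 lower, or 27.9%, against 33.1% of all genes (15.9% and 17.2%). With library totals 4 were higher and 13 lower, against 7.31% and 41.6% of all genes. The libraries did not overlap in 18 members, 9 higher and 9 lower, against 43.7% of all genes (20.9% and 22.8%). Kcnk5 (1.52 ± 0.07), Trpv2 (0.72 ± 0.06) and Mcoln2 (0.61 ± 0.14) were higher and Kcnj2 (-1.69 ± 0.11), Kcns1 (-0.82 ± 0.20), Kcne3 (-0.74 ± 0.07) and Kcnk6 (-0.31 ± 0.07) lower in all 17 alternatives. Kcnn4 was lower than in Control at -0.20 ± 0.06 (adjusted p = 0.00773 by edgeR's quasi-likelihood test). It lost this call without Control replicate 2 (-0.12, adjusted p = 0.115) or Taxinine replicate 2 (-0.16, adjusted p = 0.0757).

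Trpm7 (0.26 ± 0.05) and Kcnq5 (0.27 ± 0.09) were called higher than in Control, though not with library totals (0.06 and 0.07). Kcnq5 also lost the call without Taxinine replicate 3 (adjusted p = 0.0754 by edgeR's quasi-likelihood test). Cacng8 was called lower at -0.35 ± 0.12 with levels of 9.49, 8.18 and 10.9 CPM in Taxinine and 11.6, 13.6 and 11.4 in Control. It lost the call with DESeq2 (adjusted p = 0.0709) and without Control replicate 2 (0.126), Taxinine replicate 1 (0.0538) or Taxinine replicate 2 (0.163). Kcnab1, a beta subunit related to Kcnab2, was the only member under 1 CPM called in any comparison, on 15 counts over the Taxinine libraries against 4 over Control (2.29 ± 0.78). It lost the call with DESeq2 (adjusted p = 0.0609) and without Control replicate 3 (0.0980) or Taxinine replicate 3 (0.0503).

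The other 14 members under 1 CPM were Kcnmb1, Kcnk7, Kcnip4, Kcnq1, Kcna4, Kcns3, Kcnrg, Kcng2, Cacng3, Trpv4, Cacna2d2, Cacna1d, Kcng3 and Kcnd2. The 15 held between 17 and 94 counts each over all 9 libraries, so differences in them were not detectable at this depth unless large. Of the 13 further members at or above 1 CPM that were called in no comparison, Kcnab3, Kcnd1, Cacng7 and Cacna1a lay between 1.11 and 3.60 CPM in Control. Exons of Kcnq1 and Kcnq1ot1 share 121 bases on opposite strands, where it is not known whether the counting kept their reads apart.

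The E-box letters described above were in the windows of 7 of the 15 members that have a window and were called in at least 1 comparison: Kcnn4, Kcnj2, Kcnk5, Mcoln1, Mcoln2, Trpm7 and Kcnab1. They were in none of the windows of the 19 members called in no comparison. The called members whose windows lack the letters are Cacng8, Kcna3, Kcne3, Kcnq1ot1, Kcnq5, Kcns1, Trpc6 and Trpv2. Of all measured genes with a window, 12.6% of the 4945 called in at least 1 comparison and 10.5% of the 5629 called in none held the letters. Level goes with the members' split: 14 of the 15 called members were at or above 1 CPM, 6 of them with an E-box, and 12 of the 19 others were below it; the part of level was not tested. At or above 1 CPM the shares over all genes were 12.7% of those called and 11.4% of those not called. The 7 include genes that were higher and genes that were lower in BSA. The other motifs searched, on both strands, were the NFAT core GGAAA, in 26 of 49 member windows (61.3% of all windows), the AP-1 site TGANTCA in 2 of 49 (7.81%), the GATA site AGATAA in 1 of 49 (11.2%), and the CRE TGACGTCA (1.79%), the EGR site GCGTGGGCG (0.612%) and an NF-kB consensus (0.411%) in none. E-boxes were in 8 of the 49 (16.3%, against 7.15% of all windows). All windows are not limited to genes measured here, whose larger shares by gene are given above. Of the motifs searched only the E-box, the 1 shown above, had a larger share in member windows than in all windows. Members with several starts have several windows. These are matches of letters, with no test made, and say nothing of binding.

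Genes that work with these channels were taken from lists written from general knowledge. Their counts in BSA against Control stand beside the 16.2% of all genes called higher and 17.8% called lower with TMM, and the 7.15% and 45.6% with library totals. In Taxinine against BSA those shares were 2.86% and 4.12% with TMM and 4.28% and 3.15% with library totals. Of 12 genes of store-operated calcium entry, 4 were higher and 0 lower in BSA with TMM, and 1 and 2 with library totals. Saraf, which limits that entry, was called higher with both (0.47 ± 0.04 and 0.24). The pore subunit Orai1 (0.37 ± 0.08) was called with TMM alone (0.14 with library totals), and so was the calcium sensor Stim1 (0.17 ± 0.05), which turned to -0.06. In Taxinine against BSA 1 of the 12 was called, the pore subunit Orai2 at -0.19 ± 0.05 (adjusted p = 0.0200, and 0.0502 with library totals, by edgeR's quasi-likelihood test).

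Of 13 calcium pumps and exchangers measured, 6 were higher and 1 lower in BSA with TMM, and 1 and 5 with library totals. The exchanger Slc24a1 was higher with both (2.24 ± 0.32 and 2.01) and the mitochondrial exchanger Slc8b1 lower with both (-0.44 ± 0.13 and -0.66), whereas the endoplasmic reticulum pump Atp2a2 (0.25 ± 0.04) was not called with library totals (0.02). None of the 13 was called in Taxinine against BSA with edgeR's quasi-likelihood test, DESeq2 or limma, and 1, Mcu, had an unadjusted p under 0.05. Of 7 genes known to regulate Kcnn4 channels, 2 were higher in BSA, among them the calmodulin gene Calm2 (0.36 ± 0.04), which stayed called with library totals (0.13). None of the 7 was called in Taxinine against BSA by edgeR, DESeq2 or limma, with 0 at an unadjusted p under 0.05.

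Of 24 other cation channels, 3 were higher and 3 lower in BSA with TMM, and 0 and 10 with library totals. The ATP-gated P2rx4 (-0.40 ± 0.04 and -0.63) and the endolysosomal Tpcn2 (-0.52 ± 0.11 and -0.75) were lower with both, and P2rx1 (0.20 ± 0.05) turned to -0.02. In Taxinine against BSA 1 was higher, Pkd1 (0.27 ± 0.06), and 3 were lower, among them P2rx1 (-0.20 ± 0.05). Pkd1 and P2rx1 stayed called with library totals (0.29 and -0.17).

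Of 20 chloride and anion channel genes, 3 were higher and 3 lower in BSA with TMM, and 1 and 8 with library totals. The volume-regulated anion channel subunit Lrrc8d (0.48 ± 0.06 and 0.25) was higher and the acid-activated channel Pacc1 (-0.35 ± 0.06 and -0.57) lower with both. In Taxinine against BSA 3 of the 20 were lower, Lrrc8d (-0.26 ± 0.06), its relative Lrrc8c (-0.19 ± 0.05) and Ttyh3 (-0.16 ± 0.05), and with library totals only Lrrc8d was called (-0.23). Of 12 sodium pump and cotransporter genes, 3 were higher and 1 lower in BSA with TMM, and 0 and 4 with library totals. The sodium pump regulator Fxyd5 (0.30 ± 0.04) was not called with library totals (0.08), and none of the 12 was called in Taxinine against BSA by edgeR, DESeq2 or limma, with 0 at an unadjusted p under 0.05. The 6 list medians ran from -0.02 to 0.13 in BSA against Control and from -0.10 to 0.05 in Taxinine against BSA with TMM, against -0.0041 and 0.0021 over all genes.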

How the data were processed

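Messenger RNA was sequenced as stranded libraries with paired reads of 101 bases, per the labels' protocols. STAR 2.7.0f, limma 3.11 and the builds mm10 and GRCm38 are named, per the submitters' processing notes. Annotation, counter and strand option were not given in the sources used here. A deposited table named as TMM-normalised holds whole-number read counts: totals are unequal and TMM factors recomputed on it ranged from 0.941 to 1.11, so it was taken as unscaled counts. A second deposited table holds log2 values, which match log2(CPM + 1) on plain totals to within 5.0e-05.

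Counts were tested with edgeR 4.0.16's quasi-likelihood test (R 4.3.3), TMM factors, 1 fit over 9 libraries, no filter, and Benjamini-Hochberg adjustment over 15109 genes, called under 0.05. SE is the log2 fold change over the root of F. Alternatives used RLE factors, plain totals, DESeq2 1.42.0, limma 3.58.1 on the log2 values, filters (filterByExpr; at least 10 counts), the compared groups only, a replicate term, and each library left out. The procedure was tested on simulated data. Exon lengths and coordinates are from GENCODE M21, promoters from RefSeq GRCm38.p6. Named genes are members called in any comparison at 1 CPM or more on average, the 10 highest per kilobase in Control, and 10 listed channels. These 10 were picked from general knowledge of mast cells and with earlier results of these data known. Of them Trpc1, Cacna1c and Cacnb3 are not analysed here. Low-count called members are named once, and other members for completeness, chosen after their values were seen. Members and lists were chosen with earlier results of these data known. Some genes are not reported here.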

Additional observations from a re-analysis of the deposited data

How the results depend on the processing

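Of the called members, 6 of 10 in BSA against Control, 3 of 7 in Taxinine against BSA and 7 of 12 in Taxinine against Control kept their call and direction in all 17 alternatives planned. The number called in BSA against Control was 17 with library totals, where 52.8% of all genes were called. It was 16 with limma on the deposited log2 values, where 52.0% were. With 1 library left out it ran from 10 to 12, against 29.5% to 33.6% of all genes. The number in Taxinine against BSA ran from 3 to 7 when 1 library was left out, against 4.08% to 8.48% of all genes. The number in Taxinine against Control ran from 10 to 14, against 27.9% to 34.0% of all genes. With library totals the split of higher and lower was 3 and 14 in BSA against Control, 2 and 5 in Taxinine against BSA and 4 and 13 in Taxinine against Control, against 7 and 3, 2 and 5, and 6 and 6 with TMM. Leaving out the 3 rows that share only the name, or the members under 1 CPM, alternatives chosen after seeing the data, gave 9 and 10 in the first comparison, 7 and 7 in the second and 12 and 11 in the third.

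No value called with TMM turned its sign. Among the others, library totals and limma on the deposited values turned Kcnab2 (-0.13 and -0.13), Trpm7 (-0.17 and -0.17), Kcnq5 (-0.15 and -0.15) and Kcns1 (-0.13 and -0.12) in BSA against Control, and Mcoln2 (0.012 and 0.011) in Taxinine against BSA. In Taxinine against Control they turned Kcnab2 (-0.18 and -0.18), Trpc4ap (-0.15 and -0.15), Kcna3 (-0.027 and -0.012) and Trpc6 (-0.078 and -0.072). These alternatives lack the TMM factors, which moves all genes together, and under both they called Kcnab2 and Trpm7 in BSA against Control and Kcnab2 and Trpc4ap in Taxinine against Control. Leaving out 1 library gave both signs for Trpc4ap (-0.044 to 0.046), Kcns1 (-0.046 to 0.20) and Trpm4 (-0.10 to 0.094) in BSA against Control. It did so for Cacng8 (-0.20 to 0.025), Mcoln2 (-0.067 to 0.022), Trpm4 (-0.17 to 0.028) and Kcnq1ot1 (-0.27 to 0.025) in Taxinine against BSA, and for Kcnab2 (-0.0049 to 0.040) in Taxinine against Control.

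Libraries of equal replicate number did not deviate together: correlations of their deviations over 11671 genes ran from -0.11 to 0.086. A fit with the replicate block called 10, 6 and 12 members in the 3 comparisons, against 33.6%, 7.23% and 32.9% of all genes. Among the named members it ended the call of Mcoln1 in Taxinine against BSA and no other. With DESeq2 10, 6 and 10 members were called, against 28.5%, 5.39% and 27.2% of all genes. Kcnab1 could not be fitted after filterByExpr, which removed it. Depth limits the 15 members under 1 CPM, which held at most 94 counts each over 9 libraries.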
